A study of Mus musculus with 35 samples.

Results

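Mouse cells cultured for 14 days after infection with the factor combination labelled OB were compared with cells infected with the combination labelled OA. The comparison holds 6 of the 35 RNA-seq libraries of the series, 3 of OB and 3 of OA, chosen by their labels alone. Both groups went through the same rounds of infection, were then kept in iCD1, a defined reprogramming medium, and received no BMP4, which other groups of the series received at 10 ng/ml. Poly(A) RNA was sequenced in bulk. The labels do not spell out OB, OA or the third combination without BMP4, ODR, and do not say whether replicates were separate cultures, so the p-values reflect how much these libraries vary, and that variation may be technical. The labels name no parental line or vector for these groups.

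Kdm2b and Kdm2a are closely related histone demethylases that act on methylated lysine of histone H3 and bind unmethylated CpG dinucleotides through a CXXC zinc finger. Kdm2b is also the subunit that brings the variant Polycomb complex PRC1.1, built with Bcor, Pcgf1, Skp1 and the ubiquitin ligase Rnf2, to CpG islands. Pou5f1 (Oct4) is a transcription factor used to convert fibroblasts towards a pluripotent state, and the title of the series names Kdm2b and a variant PRC1 complex in somatic reprogramming.

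The labels were first checked against these genes. Kdm2b (chr5:122870665-122989823, minus strand, in GRCm38) stood at 4626, 6246 and 4220 in OB and 342, 216 and 224 in OA, each given for replicates 1 to 3 in order. These are deposited normalized values with no unit stated. The groups did not overlap, and the difference OB minus OA was 4.28 ± 0.22 (SE; adjusted p = 1.29e-09) on the log2(value + 1) scale, by limma with Benjamini-Hochberg adjustment over 12683 genes. Every difference below is on this scale and from this fit. Kdm2a (chr19:4314419-4398285, minus strand) stood at 1000, 950 and 806 in OB and 18690, 721 and 18690 in OA. The value 18690 is the highest the table holds, so a difference against it may understate the size of the change. The library labelled OA day 14 replicate 2 therefore lacked the high Kdm2a that marked the other OA libraries, and its Kdm2a lay below all OB libraries. With it, Kdm2a differed by -2.79 ± 0.76 (SE; adjusted p = 0.00468), a call that was lost when the 6 libraries were fitted alone (adjusted p = 0.144). No test of Kdm2a without that library is given, since its Kdm2a value is among the grounds for setting it apart. Pou5f1 was at 18690 in every library of OB, OA and ODR at day 14 but OB replicate 1, which held 7086. Its difference of -0.47 ± 0.23 (SE; adjusted p = 0.0889) was not called, but was when OB replicate 2 (adjusted p = 0.0162) or OB replicate 3 (adjusted p = 0.0161) was left out. Gene-level values do not separate an introduced copy from the cells' own gene.

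**Figure D1:**
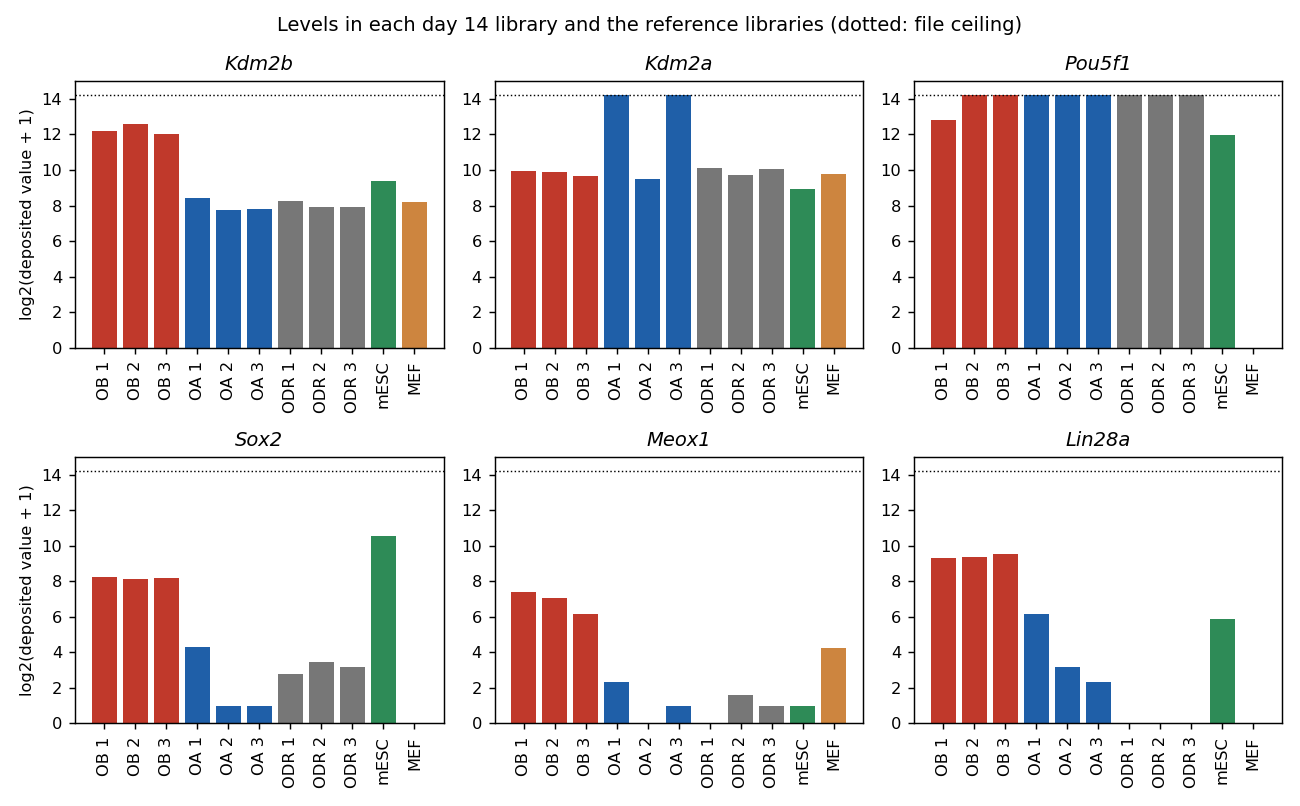
Levels of 6 genes, as log2(deposited value + 1) on the vertical axis, in each OB, OA and ODR library of day 14 and in the single embryonic stem cell (mESC) and embryonic fibroblast (MEF) libraries. The dotted line is the highest value of the table, 18690. Kdm2b is high in the 3 OB libraries, Kdm2a in OA replicates 1 and 3 but not 2, and Sox2, Meox1 and Lin28a are higher in every OB library than in any OA library.

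The OA libraries were unlike one another in further ways. Across genes, log2 values of OA replicates 1 and 3 correlated at r = 0.961 with each other, whereas those of the library labelled replicate 2 correlated at 0.778 to 0.876 with the other 8 day 14 libraries of OB, OA and ODR. OB libraries correlated at 0.958 to 0.973 among themselves. These correlations are a description, since genes are not independent. OA replicate 1 lay closer to OB (0.847 to 0.901) than replicate 3 did (0.781 to 0.860), and it held the highest level of the 3 OA libraries for 14 of 16 tested genes of the Lin28 list described below and 31 of 34 of the cell cycle list. Counts over gene lists are therefore also given without the library labelled OA replicate 2, and without OA replicate 1 where that moved a count by more than 1.5 times or gave calls in a direction that had 0. In bulk RNA, fewer cells of a type and less RNA per cell cannot be told apart.

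Of 12683 genes with a value of 10 or more in at least 2 of the 6 libraries, 3697 were higher in OB (29.1%) and 3378 lower (26.6%), together 55.8%. By unadjusted p under 0.05, 7659 differed. In the lists described below, a count of 0 in one direction is from limma. With all 6 libraries the unadjusted count in that direction was also 0 except for 1 neural progenitor, 1 endoderm, 1 endothelial and 1 fat gene. A member that reached 10 in fewer than 2 libraries of one group was tested wholly or partly through the other group, which partly fixes its direction. Without the library labelled OA replicate 2, 3690 were higher and 3434 lower (29.1% and 27.1%, together 56.2%), and without OA replicate 1 28.7% were higher and 26.3% lower (55% in all). Of the calls, 3312 higher and 2951 lower were made in both fits, and 0 changed direction. The 6 libraries fitted alone gave 2529 higher and 2034 lower. Large differences were mostly in one direction: among called genes with a log2 difference of 3 or more, 167 were higher in OB and 44 lower, while at 1 or more the numbers were 1540 and 1549.

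**Figure D2:**
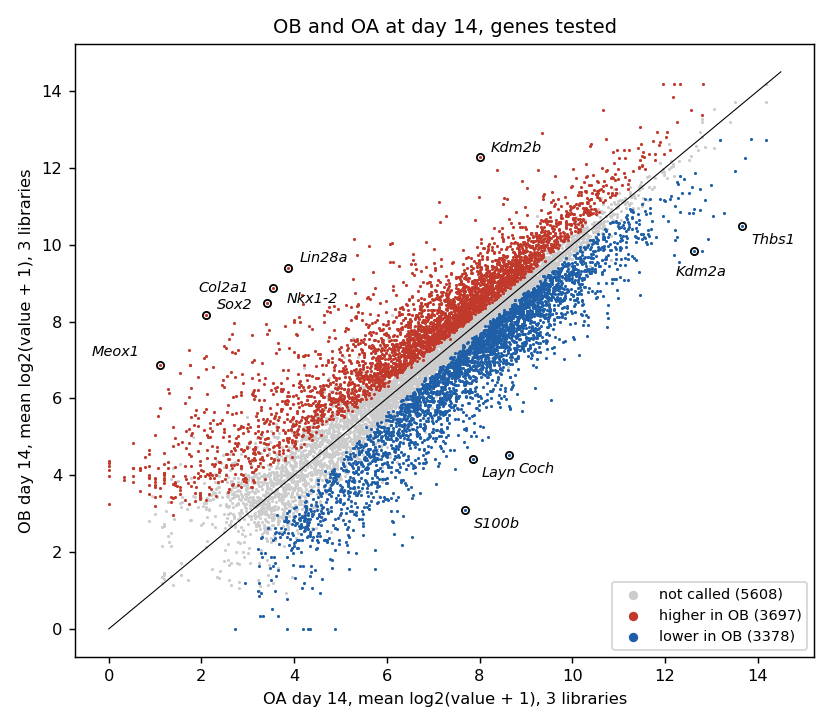
Each point is 1 of the 12683 genes tested, by its mean log2(deposited value + 1) over the 3 OA libraries (horizontal) and the 3 OB libraries (vertical) of day 14. Red genes were called higher in OB (3697), blue ones lower (3378), grey ones neither, and the line marks equal means. Meox1, Sox2, Col2a1, Nkx1-2, Lin28a and Kdm2b lie far above the line, and S100b, Layn, Coch, Thbs1 and Kdm2a below it.

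The genes with the largest rise in OB included regulators of the early embryo with low values in OA and in ODR. Sox2 (chr3:34650405-34652461, plus strand), a transcription factor of pluripotent and neural progenitor cells, stood at 302, 274 and 292 in OB and 19, 1 and 1 in OA, group means of 289 ± 14.2 and 7 ± 10.4 (SD, n = 3 each). Every OB library was far above the highest OA library, which was replicate 1, and the difference was 6.07 ± 0.72 (SE; adjusted p = 2.05e-06), or 5.52 (adjusted p = 1.65e-05) without the library labelled OA replicate 2. Meox1 (chr11:101877510-101894374, minus strand), a homeobox gene of the forming somites, was at 164, 132 and 71 in OB and 4, 0 and 1 in OA. Meox1 differed by 5.76 ± 0.48 (SE; adjusted p = 5.95e-08). Lin28a (chr4:134003330-134018841, minus strand), an RNA-binding protein that blocks maturation of let-7 microRNAs, was at 632, 656 and 742 in OB and 69, 8 and 4 in OA, and listed at 0 in all 3 ODR libraries. Again OA replicate 1 was the highest of its group, and the difference was 5.53 ± 0.64 (SE; adjusted p = 1.48e-06). Nkx1-2 (chr7:132594878-132599637, minus strand), a homeobox gene of the caudal stem zone, was at 496, 502 and 402 in OB and 64, 3 and 5 in OA. Nkx1-2 differed by 5.33 ± 0.78 (SE; adjusted p = 1.77e-05). Car14, a membrane carbonic anhydrase, stood at 216, 152 and 110 in OB and 11, 2 and 0 in OA. Car14 differed by 5.55 ± 0.54 (SE; adjusted p = 2.72e-07). Celsr1, a planar cell polarity cadherin, was at 226, 310 and 218 in OB and 22, 5 and 1 in OA. Gbx2, a homeobox gene of the anterior hindbrain, was at 130, 113 and 109 in OB and 18, 1 and 0 in OA. Their differences were 5.26 (adjusted p = 5.36e-06) and 5.13 (adjusted p = 1.39e-05). Col2a1, the main collagen of cartilage and notochord, B4galnt4, Cnpy1, Cdx4 and Mir124-2hg, a host transcript of the neuronal microRNA miR-124, complete the 12 largest, with differences of 5.06, 5.02, 5.01, 5.11 and 5.12. For each of the 12, the OB and OA libraries did not overlap, as the rule for naming them required. Over all genes tested, OB lay wholly above OA for 29.2% and wholly below for 25%, 54.3% together.

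The 12 largest falls in OB were chosen by the same rule. S100b (chr10:76253853-76261159, plus strand), a calcium-binding protein of glia and cartilage, stood at 7, 10 and 6 in OB and 102, 1206 and 68 in OA, so that the library labelled OA replicate 2 was far above the other OA libraries. The difference was -4.59 ± 0.80 (SE; adjusted p = 0.000108), and -3.31 (adjusted p = 0.000207) without that library. Layn (chr9:51054640-51077094, minus strand), a hyaluronan receptor, was at 11, 19 and 41 in OB and 174, 280 and 252 in OA, and its 3 OA libraries lay together. Layn differed by -3.42 ± 0.31 (SE; adjusted p = 1.49e-07). Thbs1, the matrix glycoprotein thrombospondin 1, was at 822, 1618 and 2219 in OB and 6246, 18690 and 18690 in OA. The true fall may be larger than the fitted -3.18 (adjusted p = 1.9e-06) because OA reached the top of the table. Myo1d, an unconventional myosin, stood at 18, 16 and 17 in OB and 120, 294 and 153 in OA. Myo1d differed by -3.29 ± 0.21 (SE; adjusted p = 9.82e-09). Ptger4, a prostaglandin E receptor, was at 26, 57 and 84 in OB and 441, 443 and 582 in OA. Ptger4 differed by -3.25 ± 0.29 (SE; adjusted p = 1.11e-07). Coch, a secreted protein of the inner ear, was at 21, 24 and 21 in OB and 156, 2289 and 177 in OA, and its difference of -4.12 became -2.86 (adjusted p = 9e-06) without the library labelled OA replicate 2. The other 6 were Tac1 (the substance P precursor), Rai2, Pcolce2 (an enhancer of procollagen processing), C2 (a complement protease), Sema3b (a secreted semaphorin) and Gpr37, with differences from -3.59 in Tac1 to -3.04 in Gpr37. All 12 were called in both fits, which the naming rule required.

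Because Kdm2a and Kdm2b read CpG, the RefSeq promoters (GRCm38.p6) of the 2 most raised and 2 most lowered of these 24 genes that have an entry are shown, limited to the 250 bases before the transcription start and to windows that no annotated exon overlaps, 5′ to 3′, with CG in capitals. The start is that of the RefSeq promoter entry, while gene coordinates and exons are from GENCODE. The windows of Sox2 and S100b therefore end short of the gene starts given above. The counts of CG are 27, 19, 2 and 24 in the order shown.
Sox2, chr3:34649745-34649994, plus strand: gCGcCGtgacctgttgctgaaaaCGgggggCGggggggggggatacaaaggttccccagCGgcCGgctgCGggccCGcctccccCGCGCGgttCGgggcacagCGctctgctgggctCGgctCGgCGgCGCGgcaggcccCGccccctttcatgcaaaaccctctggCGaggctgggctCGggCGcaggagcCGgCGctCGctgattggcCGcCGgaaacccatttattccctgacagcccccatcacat
Nkx1-2, chr7:132599638-132599887, minus strand: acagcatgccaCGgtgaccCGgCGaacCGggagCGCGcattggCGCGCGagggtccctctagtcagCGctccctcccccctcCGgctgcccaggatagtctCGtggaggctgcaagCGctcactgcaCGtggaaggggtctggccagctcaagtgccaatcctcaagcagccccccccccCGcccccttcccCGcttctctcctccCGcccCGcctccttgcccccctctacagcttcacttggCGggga
S100b, chr10:76253586-76253835, plus strand: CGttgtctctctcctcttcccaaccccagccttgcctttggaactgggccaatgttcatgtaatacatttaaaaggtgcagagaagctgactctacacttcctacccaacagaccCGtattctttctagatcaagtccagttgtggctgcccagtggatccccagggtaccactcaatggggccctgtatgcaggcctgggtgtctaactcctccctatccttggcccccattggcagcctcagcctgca
Coch, chr12:51593091-51593340, plus strand: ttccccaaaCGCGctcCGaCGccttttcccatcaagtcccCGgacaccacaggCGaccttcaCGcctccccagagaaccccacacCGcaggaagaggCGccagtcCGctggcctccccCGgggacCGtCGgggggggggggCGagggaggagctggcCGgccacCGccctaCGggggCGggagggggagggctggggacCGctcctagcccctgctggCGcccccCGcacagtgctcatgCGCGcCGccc
The motif CG reads the same on both strands, and 98.9% of the 9800 tested genes with a promoter entry held at least 1 in such a window, with a median of 16. As many CG as in the Sox2 window were found in 15.9% of them, as in Nkx1-2 in 39.3%, as in S100b in 97.1% and as in Coch in 23.1%. Over all the genes with an entry, the 8 raised ones held 4 to 30 CG in this window with a median of 14, and the 7 lowered ones 2 to 24 with a median of 16. No count over called genes was made, since only 77.3% of the genes tested had an entry, and binding was not measured in these libraries.

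Genes of the caudal end and primitive streak of the embryo, where Wnt and Fgf signals keep axial progenitors, were higher in OB where they were called. Of 25 listed, 17 were tested, of which 16 were higher in OB and 0 lower, with a median difference of 3.82 against 0.03 over all genes tested. Without the library labelled OA replicate 2 the count was 14 and the median 4.06. Cdx2, a caudal homeobox gene, stood at 170, 206 and 186 in OB and 23, 2 and 2 in OA. Cdx2 differed by 4.97 ± 0.56 (SE; adjusted p = 1.09e-06). Its relative Cdx4 was at 112, 114 and 122 in OB and 12, 0 and 2 in OA, and both were listed at 0 in all ODR libraries. T (Brachyury), which marks primitive streak and notochord, was at 59, 43 and 52 in OB and 24, 0 and 1 in OA, so that OA replicate 1 held 24 where replicates 2 and 3 held 0 and 1. Its difference was 3.82 ± 0.77 (SE; adjusted p = 0.000386). Evx1, a homeobox gene of the streak, was at 42, 17 and 30 in OB and 2, 0 and 0 in OA. Wnt8a, a Wnt ligand of the streak, was at 76, 94 and 38 in OB and 2, 2 and 3 in OA. Of the 17, 12 reached 10 in fewer than 2 OA libraries and so were tested through their OB values, which partly fixes this share and median. Over all 25 members, tested or not, OB lay wholly above OA in 16 and wholly below in 0. The shares over all genes tested were 29.2% and 25%. The member that was not called, Wnt3, stood at 10, 4 and 3 in OB and 4, 57 and 2 in OA. Fgf8 and Mesp1, both defining genes of the streak and its first mesoderm, were listed at 0 in all 6 libraries, and 6 further members (Fgf17, Fgf4, Wnt3a, Mixl1, Eomes and Tdgf1) did not pass the filter on low values.

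Hox genes, which set position along the body axis, were mostly called higher in OB in all 4 clusters. The calls were 9 of 10 tested HoxA genes, 9 of 9 HoxB, 5 of 7 HoxC and 7 of 9 HoxD genes, with median differences of 1.97, 1.49, 1.05 and 1.61. Of the tested genes, 3 HoxA, 1 HoxB, 1 HoxC and 2 HoxD reached 10 in fewer than 2 OA libraries. Hoxb1 and Hoxd1 are among them, and this partly fixes the shares. Over all members, tested or not, OB lay wholly above OA in 10 of 11, 9 of 10, 5 of 9 and 6 of 9, against 29.2% of all genes tested. It lay wholly below OA in 0. Hoxb1, at the 3′ end of its cluster and the first of it to be switched on in the embryo, showed the largest difference among the Hox genes named here: it stood at 120, 98 and 104 in OB and 12, 2 and 1 in OA. Hoxb1 differed by 4.66 ± 0.44 (SE; adjusted p = 2.07e-07). Hoxd1 followed, at 9, 23 and 24 in OB and 2, 0 and 0 in OA. Hoxd1 differed by 3.66 ± 0.37 (SE; adjusted p = 3.62e-07). Central and posterior genes rose as well from a level already present in OA. Hoxa9 was at 734, 640 and 482 in OB and 107, 97 and 76 in OA. Hoxa9 differed by 2.71 ± 0.30 (SE; adjusted p = 1.15e-06). Hoxc10 was at 575, 388 and 402 in OB and 120, 54 and 52 in OA. Hoxc10 differed by 2.67 ± 0.32 (SE; adjusted p = 2.11e-06). Hoxd13, at the opposite end of HoxD, was the exception: it stood at 15, 29 and 26 in OB and 44, 132 and 24 in OA and at 204, 179 and 102 in ODR. Its difference of -1.18 ± 0.43 (SE; adjusted p = 0.0279) was no longer called without the library labelled OA replicate 2 (adjusted p = 0.216) or without OB replicate 1 (adjusted p = 0.132). Without that library 8 of 9 HoxD genes were higher and 0 lower, and counts in the other clusters were the same.

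Transcription factors of neural progenitors were called higher in 12 of 21 tested and lower in 0, with a median of 1.90 (13 higher and 0 lower without the library labelled OA replicate 2). Of the 21, 7 reached 10 in fewer than 2 OA libraries and so were tested through their OB values. Beside Sox2 and Gbx2 these included En2, a gene of the midbrain-hindbrain boundary, at 114, 85 and 84 in OB and 6, 1 and 3 in OA. En2 differed by 4.62 ± 0.54 (SE; adjusted p = 1.65e-06). Lhx2, a LIM homeobox gene of forebrain and eye, was at 255, 116 and 119 in OB and 7, 6 and 5 in OA. Lhx2 differed by 4.46 ± 0.44 (SE; adjusted p = 2.85e-07). Zic1, a zinc finger gene of the dorsal neural tube, was at 1230, 1106 and 922 in OB and 318, 48 and 96 in OA, with OA replicate 1 well above the other OA libraries. Zic1 differed by 3.23 ± 0.43 (SE; adjusted p = 6.13e-06). The neural genes Sox1, Sox3, Pax6 and Nes were among the 9 that were not called. Genes of mature neurons divided: of 22 tested, 8 were higher (36.4%) and 4 lower (18.2%), against 29.1% and 26.6% over all genes tested. Without the library labelled OA replicate 2 the counts were 7 and 4. Of these 22 neuronal genes, 7 reached 10 in fewer than 2 OA libraries, which partly fixes the count of higher genes. Over all 26 neuronal members, tested or not, OB lay wholly above OA in 10 and wholly below in 4. The shares over all genes tested were 29.2% and 25%. Snap25, a protein of synaptic vesicle fusion, was at 32, 15 and 16 in OB and listed at 0 in all OA libraries. Elavl4, a neuronal RNA-binding protein, was at 83, 38 and 38 in OB and 8, 5 and 6 in OA. Elavl4 differed by 2.80 ± 0.40 (SE; adjusted p = 1.52e-05). Against this, Map2, a microtubule protein of dendrites, was at 818, 1260 and 1198 in OB and 2892, 2730 and 3706 in OA. Map2 differed by -1.52 ± 0.16 (SE; adjusted p = 5.34e-07). The intermediate filament gene Nefm was at 410, 530 and 622 in OB and 1299, 1898 and 1366 in OA.

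Among genes of presomitic mesoderm and somites, 7 of 13 tested were higher, 1 lower and 5 not called, with a median of 1.08 (8 higher and 1 lower without the library labelled OA replicate 2). With all 6 libraries these were 53.8% and 7.69%, against 29.1% and 26.6% over all genes tested. Of the 13, 3 reached 10 in fewer than 2 OA libraries, which partly fixes the count of higher genes. Apart from Meox1, the called genes had low levels. Tcf15, a bHLH factor of somite epithelium, stood at 41, 11 and 24 in OB and 5, 0 and 0 in OA. Tcf15 differed by 3.68 ± 0.57 (SE; adjusted p = 3.36e-05). Pax3, of somite and neural crest, was at 35, 40 and 22 in OB and 5, 11 and 2 in OA. Pax3 differed by 2.43 ± 0.43 (SE; adjusted p = 0.000109). Dll3, a Notch ligand of the segmentation clock, was at 63, 60 and 48 in OB and 32, 10 and 7 in OA. Pax1, of the sclerotome, went the other way, at 2, 6 and 5 in OB and 16, 8 and 31 in OA. The defining presomitic genes Tbx6, Msgn1 and Hes7 did not pass the filter on low values, and the muscle determination gene Myf5 was listed at 0 in all 6 libraries.

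Every tested gene of the Lin28 and let-7 linked oncofetal list, proteins made in embryonic tissue and silenced later, was higher in OB (16 of 16, in both fits), with a median of 1.99. Of the 16, 2 reached 10 in fewer than 2 OA libraries, which partly fixes their direction. Lin28b stood at 410, 304 and 340 in OB and 83, 23 and 35 in OA. Lin28b differed by 3.07 ± 0.33 (SE; adjusted p = 7.77e-07), and every OB library was above every OA library. Arid3b, a DNA-binding protein encoded by a let-7 target, was at 547, 486 and 448 in OB and 136, 87 and 51 in OA. Arid3b differed by 2.53 ± 0.26 (SE; adjusted p = 5.51e-07). Igf2bp1, an oncofetal mRNA-binding protein, was at 1196, 853 and 727 in OB and 408, 226 and 248 in OA. Igf2bp1 differed by 1.67 ± 0.20 (SE; adjusted p = 2.44e-06). Hmga2, an architectural chromatin protein and known let-7 target, was at 7091, 3012 and 2886 in OB and 1490, 194 and 806 in OA. Its lowest OA value was in the library labelled replicate 2, and without it the difference fell from 2.68 to 1.85 (adjusted p = 0.000243). Imprinted genes, many of which drive fetal growth, were called higher in 11 of 24 tested and lower in 4, with a median of 0.65, or 8, 5 and 0.12 without the library labelled OA replicate 2. With all 6 libraries the shares were 45.8% and 16.7%, against 29.1% and 26.6% over all genes tested. Peg3, a paternally expressed zinc finger gene, stood at 4217, 2886 and 2720 in OB and 798, 404 and 346 in OA. Peg3 differed by 2.73 ± 0.29 (SE; adjusted p = 6.67e-07). Igf2, the fetal growth factor, was at 5077, 3993 and 4217 in OB and 1534, 1123 and 1132 in OA, and its difference of 1.82 was close to the 1.94 of day 6. Peg10, a retrotransposon-derived gene, was at 18690, 5616 and 4217 in OB and 910, 1184 and 250 in OA, where OB replicate 1 reached the top of the table.

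Core pluripotency genes were mostly low or listed at 0 in both groups. Of 34 genes listed, 17 did not pass the filter, among them Nanog, which stood at 6, 4 and 5 in OB and 4, 0 and 0 in OA, Esrrb, Zfp42 and Utf1, and Dppa4, Prdm14, Fgf5 and Tcl1 were listed at 0 in all 6 libraries. Of the 17 tested, 7 were higher in OB (41.2%) and 3 lower (17.6%), against 29.1% and 26.6% over all genes tested. The median was -0.52, a sign opposite to that of the larger count. Without the library labelled OA replicate 2 the counts were 7 and 4. Of the 17, 3 reached 10 in fewer than 2 OA libraries and 3 in fewer than 2 OB libraries, which partly fixes both counts. Sall4, a zinc finger factor of embryonic stem cells and limb buds, stood at 346, 330 and 292 in OB and 53, 66 and 7 in OA. Sall4 differed by 3.39 ± 0.73 (SE; adjusted p = 0.000736). Its paralog Sall1 was at 452, 425 and 407 in OB and 78, 30 and 25 in OA. Sall1 differed by 3.42 ± 0.48 (SE; adjusted p = 1.15e-05). Dnmt3b, a de novo DNA methyltransferase of the epiblast, was at 168, 114 and 116 in OB and 36, 39 and 8 in OA. Dnmt3b differed by 2.47 ± 0.47 (SE; adjusted p = 0.000232). Lower in OB were Tfcp2l1, a factor of naive pluripotency, at 95, 194 and 104 in OB and 339, 525 and 478 in OA. Klf5 was at 136, 100 and 93 in OB and 290, 281 and 206 in OA, and Klf4 at 26, 42 and 29 in OB and 49, 114 and 54 in OA. Tfcp2l1 in OB lay near its level in ODR (107, 115 and 106), while OA lay above it. The call of Klf4, -1.06 ± 0.31 (SE; adjusted p = 0.00786), was lost without the library labelled OA replicate 2 (adjusted p = 0.0578).

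Of the 9 PRC1.1 subunits other than Kdm2b, 5 were called higher (Bcor, Rnf2, Yaf2, Skp1a and Usp7). With Kdm2b, 6 of 10 were higher and 0 lower, with a median of 0.53, and the same numbers held without the library labelled OA replicate 2. Bcor, its corepressor scaffold, stood at 710, 662 and 499 in OB and 292, 324 and 230 in OA. Bcor differed by 1.14 ± 0.16 (SE; adjusted p = 1.43e-05). Rnf2, the catalytic subunit, was at 454, 344 and 356 in OB and 272, 171 and 196 in OA. Rnf2 differed by 0.87 ± 0.18 (SE; adjusted p = 0.0005). Skp1a, which links Kdm2b to the complex, was at 1147, 1328 and 1203 in OB and 650, 768 and 672 in OA. Skp1a differed by 0.82 ± 0.16 (SE; adjusted p = 0.000311). Pcgf1, Bcorl1, Ring1 and Rybp were not called. Among 24 canonical PRC1 and PRC2 genes, 12 were higher (50%) and 8 lower (33.3%) in either fit. With all 6 libraries, 29.1% and 26.6% of all genes tested were called. Ezh2, the PRC2 methyltransferase of dividing cells, was at 856, 868 and 754 in OB and 284, 212 and 166 in OA. Ezh2 differed by 1.93 ± 0.16 (SE; adjusted p = 6.13e-08). Jarid2, a cofactor of PRC2, was at 1134, 938 and 759 in OB and 216, 238 and 154 in OA. Jarid2 differed by 2.22 ± 0.19 (SE; adjusted p = 8.06e-08). Ezh1, the paralog that prevails in resting cells, moved the opposite way, at 60, 84 and 66 in OB and 142, 178 and 118 in OA. Ezh1 differed by -1.04 ± 0.18 (SE; adjusted p = 9.79e-05). The chromobox gene Cbx6 was lower too, with a difference of -0.98 (adjusted p = 4.63e-07). Of 15 DNA methylation and TET genes, 9 were higher (60%) and 2 lower (13.3%), and 10 and 2 without the library labelled OA replicate 2. Uhrf1, which guides maintenance methylation, was at 1614, 1530 and 1407 in OB and 626, 344 and 454 in OA. Uhrf1 differed by 1.71 ± 0.17 (SE; adjusted p = 2.51e-07). Tet1, which oxidizes methylcytosine, was at 298, 190 and 157 in OB and 74, 39 and 39 in OA. Tet1 differed by 2.08 ± 0.38 (SE; adjusted p = 0.000151).

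Genes of DNA replication and mitosis rose almost without exception: 33 of 34 tested were higher in OB (32 without the library labelled OA replicate 2) and 0 lower, with a median of 1.58. Cdk1, the mitotic kinase, stood at 748, 704 and 719 in OB and 354, 307 and 334 in OA, group means of 724 ± 22.4 and 332 ± 23.6 (SD, n = 3 each). Cdk1 differed by 1.13 ± 0.08 (SE; adjusted p = 2.74e-08). Mcm7, of the replicative helicase, was at 1431, 1408 and 1310 in OB and 458, 276 and 246 in OA. Mcm7 differed by 2.13 ± 0.16 (SE; adjusted p = 2.87e-08). Bub1b, of the spindle checkpoint, was at 845, 809 and 712 in OB and 212, 118 and 116 in OA. Bub1b differed by 2.45 ± 0.20 (SE; adjusted p = 5.56e-08). In Mcm7 and Bub1b OA replicate 1 was the highest of the OA libraries. The gene that was not called with all 6 libraries was Foxm1, at 578, 622 and 589 in OB and 516, 413 and 508 in OA.

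Glycolytic genes and glucose and lactate transporters were higher in 17 of 22 tested and lower in 2, with a median of 1.07 and the same counts without the library labelled OA replicate 2. Slc2a1, the glucose transporter GLUT1, stood at 3007, 2798 and 2717 in OB and 544, 607 and 432 in OA, an increase of 2.44 ± 0.13 (SE; adjusted p = 1.29e-09). Pkm, pyruvate kinase, was at 18690 in all OB libraries and at 5620, 5620 and 4220 in OA, so its fitted difference of 1.87 ± 0.12 (SE; adjusted p = 9.82e-09) may understate the change. Pgk1, phosphoglycerate kinase, was at 9301, 18690 and 9301 in OB and 1205, 2620 and 1364 in OA, where OB replicate 2 reached the top of the table. Pdk1, which keeps pyruvate out of oxidation in the mitochondrion, was at 976, 702 and 544 in OB and 91, 166 and 60 in OA. Pdk1 differed by 2.88 ± 0.31 (SE; adjusted p = 6.67e-07). Slc16a3, a lactate exporter, was at 1205, 996 and 816 in OB and 81, 287 and 4 in OA. Slc16a3 differed by 4.34 ± 0.89 (SE; adjusted p = 0.000461). The library labelled OA replicate 2 held the highest level of the OA libraries for 17 of the 22 genes. The isoforms Hk1, of hexokinase, and Eno2, of enolase, fell, with differences of -0.75 ± 0.09 (SE; adjusted p = 1.44e-06) and -1.63 ± 0.21 (SE; adjusted p = 4.06e-06). Serine, glycine and one-carbon enzymes were higher in 16 of 19 tested and lower in 1, Mtr, with a median of 1.19 (15 and 1 without the library labelled OA replicate 2). Phgdh, which opens serine synthesis, was at 806, 760 and 900 in OB and 262, 298 and 298 in OA. Phgdh differed by 1.52 ± 0.14 (SE; adjusted p = 1.41e-07). Mthfd1l, of mitochondrial folate metabolism, was at 733, 542 and 550 in OB and 188, 170 and 146 in OA. Mthfd1l differed by 1.84 ± 0.15 (SE; adjusted p = 6.92e-08).

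**Figure D3:**
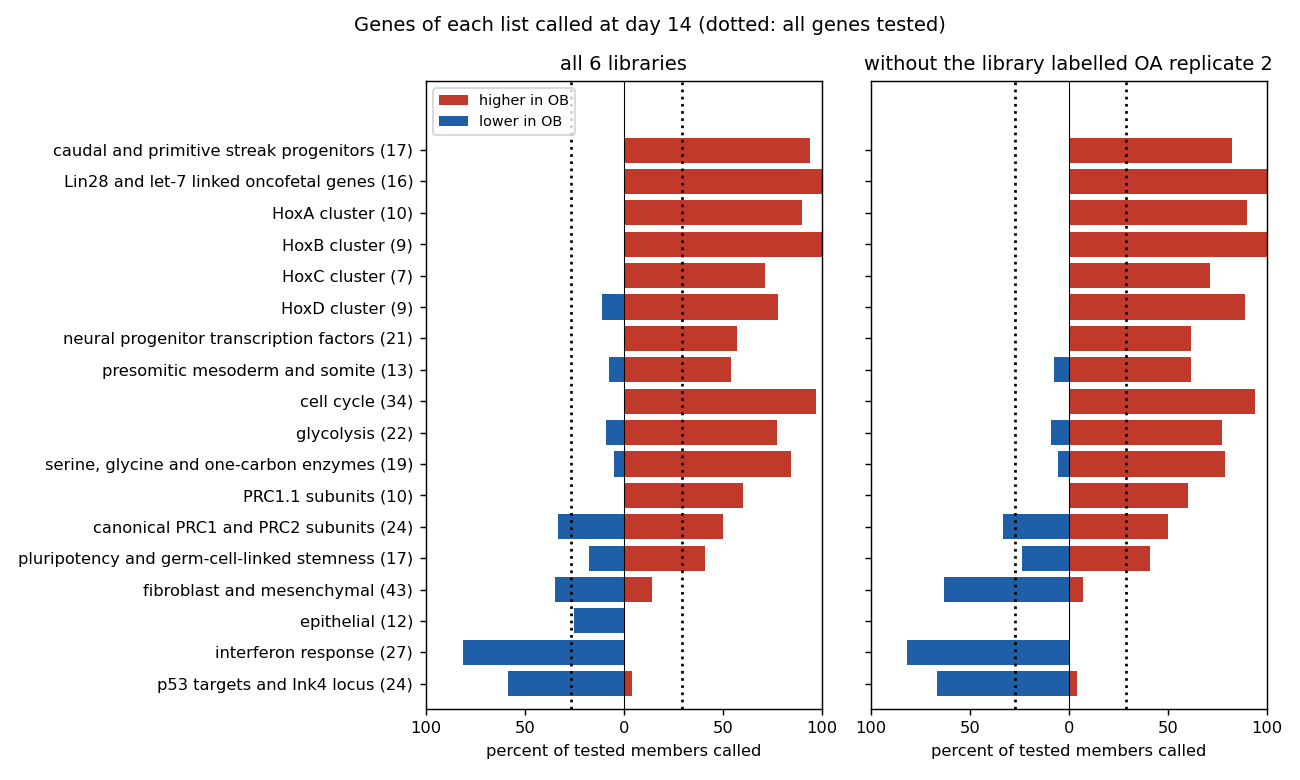
Percent of the tested members of each gene list (number tested in parentheses) called higher in OB (red, to the right) or lower in OB (blue, to the left) at day 14, with all 6 libraries and without the library labelled OA replicate 2. Dotted lines give the same percent over all genes tested. Caudal, Lin28, HoxB and cell cycle genes were called almost wholly higher, interferon genes wholly lower where called, and the fibroblast and epithelial lists changed most between the panels.

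Signalling genes were counted pathway by pathway. In the Wnt list, 10 of 18 tested genes were higher and 3 lower, with a median of 1.41 (11 higher and 2 lower without the library labelled OA replicate 2). Of the 18, 3 reached 10 in fewer than 2 OA libraries and 3 in fewer than 2 OB libraries, which partly fixes both counts. Axin2, a general target of the pathway, stood at 812, 740 and 644 in OB and 336, 266 and 178 in OA. Axin2 differed by 1.53 ± 0.25 (SE; adjusted p = 5.51e-05). Tcf7, a nuclear effector, was at 670, 340 and 456 in OB and 99, 39 and 38 in OA. Tcf7 differed by 3.13 ± 0.47 (SE; adjusted p = 2.43e-05). Znrf3, a feedback inhibitor, was at 95, 80 and 73 in OB and 22, 46 and 18 in OA. In the retinoic acid list 6 of 18 were higher (33.3%, near the 29.1% over all genes tested) and 1 lower, with the same counts without the library labelled OA replicate 2. Of these 18, 2 reached 10 in fewer than 2 OA libraries. Crabp2, which carries retinoic acid to its receptor, was at 1170, 1000 and 988 in OB and 115, 76 and 36 in OA. Crabp2 differed by 3.93 ± 0.45 (SE; adjusted p = 1.34e-06). Stra6, the receptor for retinol-binding protein, was at 722, 734 and 450 in OB and 144, 25 and 37 in OA. Stra6 differed by 3.57 ± 0.52 (SE; adjusted p = 1.72e-05). Cyp26a1, a retinoic acid degrading enzyme and also a caudal gene, was at 32, 10 and 16 in OB and 0, 3 and 0 in OA.

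The BMP list gave 6 of 25 higher and 6 lower with all 6 libraries (24% each, below the shares over all genes tested), and 11 higher and 6 lower without the library labelled OA replicate 2, which held the highest OA level for 17 of the 25. Of the 25, 4 reached 10 in fewer than 2 OA libraries, which partly fixes the count of higher genes. The ligand Bmp4 stood at 396, 272 and 260 in OB and 75, 20 and 44 in OA. Bmp4 differed by 2.87 ± 0.38 (SE; adjusted p = 5.51e-06). Id2, a direct target of the pathway, was at 1001, 617 and 548 in OB and 138, 355 and 58 in OA. Id2 differed by 2.29 ± 0.48 (SE; adjusted p = 0.000555). Msx1, another target, was at 606, 310 and 444 in OB and 58, 1140 and 29 in OA and was called only without that library (3.38 (adjusted p = 2.81e-05), against an adjusted p of 0.0874 with it). The receptor gene Acvr1 was at 126, 178 and 128 in OB and 256, 394 and 263 in OA. Acvr1 differed by -1.06 ± 0.15 (SE; adjusted p = 1.2e-05). Tnfrsf11b, osteoprotegerin, was at 300, 448 and 486 in OB and 1530, 1508 and 1810 in OA. Tnfrsf11b differed by -1.997 ± 0.19 (SE; adjusted p = 2.23e-07). Of 13 Notch genes 6 were higher (46.2%) and 1 lower (7.69%), against 29.1% and 26.6% over all genes tested. Without the library labelled OA replicate 2 the counts were 7 and 1. Here 4 of the 13 reached 10 in fewer than 2 OA libraries, which partly fixes the count of higher genes. Over all 16 Notch members, tested or not, OB lay wholly above OA in 6 and wholly below in 2. The shares over all genes tested were 29.2% and 25%. The target Nrarp was at 84, 96 and 59 in OB and 11, 30 and 4 in OA. Nrarp differed by 2.69 ± 0.59 (SE; adjusted p = 0.000851). The ligand Jag1 was at 136, 150 and 140 in OB and 304, 786 and 282 in OA. Jag1 differed by -1.51 ± 0.29 (SE; adjusted p = 0.000219). Of 15 FGF genes 6 were higher (40%) and 1 lower (6.67%), against 29.1% and 26.6% over all genes tested. The counts were 3 and 3 without the library labelled OA replicate 2, both shares below those over all genes tested. They were 8 and 0 without OA replicate 1. Dusp6, a feedback phosphatase of FGF signalling, was called with and without the library labelled OA replicate 2, at 1537, 983 and 1087 in OB and 649, 226 and 306 in OA. Dusp6 differed by 1.73 ± 0.29 (SE; adjusted p = 8.16e-05).

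The fibroblast and mesenchymal list depended on which OA libraries were used. With all 6 libraries, 6 of 43 tested genes were higher in OB and 15 lower, with a median of -0.28. Without the library labelled OA replicate 2 the counts were 3 and 27 with a median of -1.10, and without OA replicate 1 they were 11 and 14 with a median of 0.16. The library labelled OA replicate 2 was the lowest of the OA libraries for 30 of the 43. Col1a2, a chain of type I collagen, stood at 2483, 3499 and 4632 in OB and 18690, 215 and 18690 in OA: OA replicates 1 and 3 were at the top of the table and replicate 2 below every OB library. It was not called with all 6 libraries (-0.30 ± 1.06, adjusted p = 0.83) and was lower in OB without that library, where the fitted difference was -2.45 (adjusted p = 2.3e-05) against OA values at the top of the table. Dcn, the matrix proteoglycan decorin, had the same order, at 422, 587 and 743 in OB and 2544, 114 and 2124 in OA. The OB and OA libraries of Cd44, Tgfb1 and Thy1 did not overlap. Cd44, the hyaluronan receptor, was at 196, 266 and 286 in OB and 840, 1457 and 779 in OA. Cd44 differed by -1.995 ± 0.18 (SE; adjusted p = 1.5e-07). Tgfb1, a ligand that maintains fibroblast matrix, was at 174, 135 and 193 in OB and 552, 622 and 464 in OA. Tgfb1 differed by -1.71 ± 0.15 (SE; adjusted p = 8.77e-08). Thy1, a surface marker of fibroblasts, was at 376, 436 and 560 in OB and 990, 1490 and 1086 in OA. Thy1 differed by -1.37 ± 0.15 (SE; adjusted p = 9.41e-07). Among mesenchymal genes that were higher in OB, Cdh2, N-cadherin, was at 1776, 1690 and 1348 in OB and 908, 441 and 796 in OA. Cdh2 differed by 1.22 ± 0.20 (SE; adjusted p = 6.97e-05). Snai1, a repressor of epithelial genes, was at 384, 174 and 162 in OB and 122, 6 and 52 in OA. Snai1 differed by 2.64 ± 0.69 (SE; adjusted p = 0.00329), and by 1.46 (adjusted p = 0.0128) without the library labelled OA replicate 2. Its call was lost with the 6 libraries fitted alone (adjusted p = 0.104) and with the day 14 groups alone (adjusted p = 0.0533).

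Calls among epithelial genes rested on the library labelled OA replicate 2. With it, 3 of 12 tested genes (Krt18, Dsp and Pkp3) were lower in OB (25%, near the 26.6% over all genes tested) and 0 higher. Of the 12, 4 reached 10 in fewer than 2 OB libraries. Without it, limma called 0 of 12 (2 were lower at an unadjusted p under 0.05), and the median moved from -0.90 to -0.06. Without OA replicate 1 the counts were 5 lower and 0 higher, and leaving out OB replicate 3 ended all 3 calls. Cldn4, a tight junction claudin, stood at 11, 9 and 7 in OB and 12, 450 and 8 in OA. Krt8, a simple keratin, was at 53, 32 and 18 in OB and 36, 271 and 27 in OA. Cdh1, E-cadherin, was at 66, 34 and 12 in OB and 21, 114 and 9 in OA. The summed value of the 30 listed epithelial genes was 3180 in the library labelled OA replicate 2, 534 to 658 in the other OA libraries, 343 to 729 in OB and 144 to 255 in ODR. Its part in the results above was not tested beyond leaving it out.

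**Figure D4:**
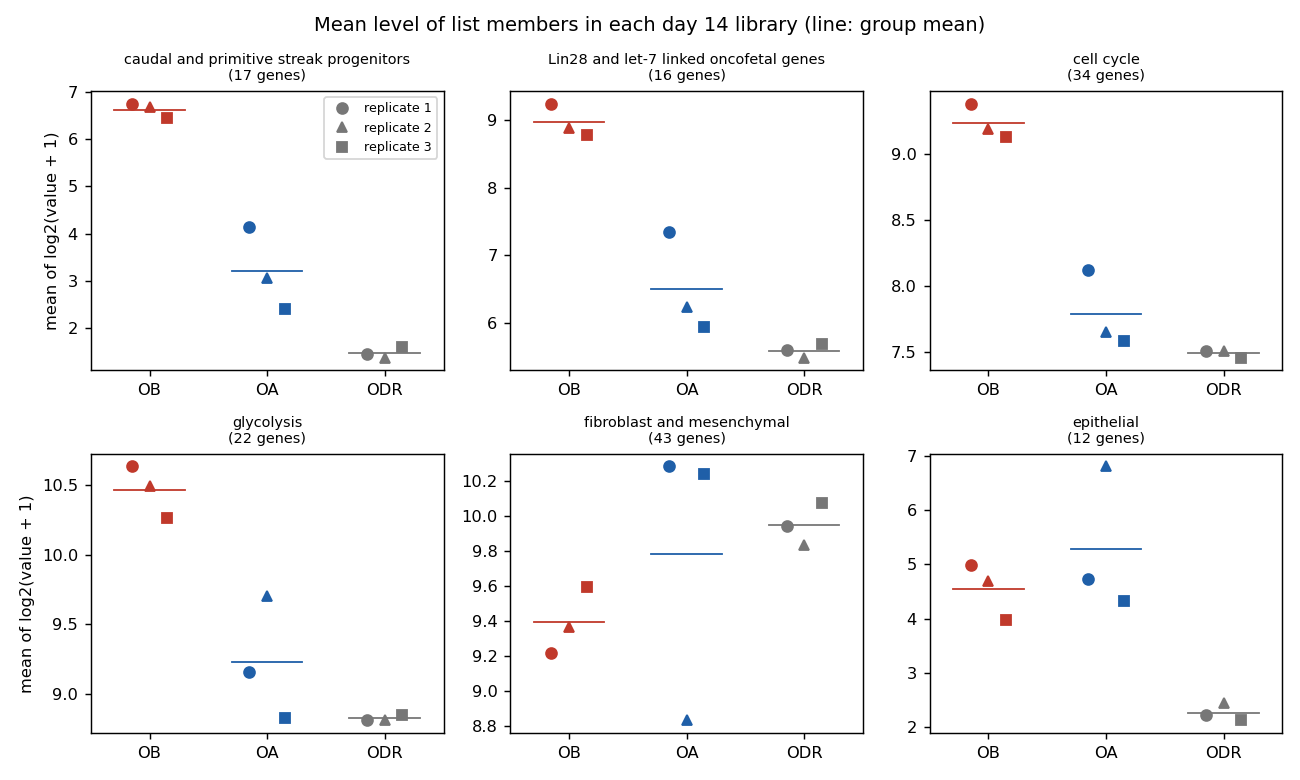
Mean of log2(deposited value + 1) over the tested members of 6 gene lists (vertical axis, each panel with its own scale that does not start at 0) in each OB, OA and ODR library of day 14. Marker shapes give the replicate, lines the group mean. OA replicate 1 is the highest OA library for caudal, Lin28 and cell cycle genes, and the library labelled OA replicate 2 stands apart from the other OA libraries for fibroblast and epithelial genes.

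Interferon-response and antigen-presentation genes were mostly called lower: of 27 tested, 22 were lower in OB and 0 higher with and without the library labelled OA replicate 2, with a median of -1.39 (20 lower and 1 higher without OA replicate 1). Of the 27, 5 reached 10 in fewer than 2 OB libraries, which partly fixes the count of lower genes. Over all 33 members, tested or not, OB lay wholly below OA in 25 and wholly above in 0. The shares over all genes tested were 25% below and 29.2% above. Ddx58 (RIG-I), a sensor of foreign RNA, stood at 134, 162 and 137 in OB and 488, 684 and 502 in OA. Ddx58 differed by -1.93 ± 0.19 (SE; adjusted p = 3.35e-07). Psmb8, a subunit of the immunoproteasome, was at 17, 32 and 23 in OB and 102, 120 and 130 in OA. Psmb8 differed by -2.28 ± 0.24 (SE; adjusted p = 6.64e-07). Tap1, the peptide transporter, was at 30, 46 and 54 in OB and 134, 164 and 176 in OA. Tap1 differed by -1.87 ± 0.20 (SE; adjusted p = 7.06e-07). The OA levels of these genes lay near those of ODR, where Ddx58 stood at 524, 514 and 557. Among p53 targets and genes of the Ink4 locus 14 of 24 were lower and 1 higher, with a median of -0.60 (16 lower and 1 higher without the library labelled OA replicate 2). Cdkn1a, the cell cycle inhibitor p21, was at 608, 730 and 916 in OB and 1158, 1297 and 1256 in OA. Cdkn1a differed by -0.74 ± 0.12 (SE; adjusted p = 4.71e-05). Fas, a death receptor, was at 15, 51 and 50 in OB and 132, 125 and 177 in OA. Fas differed by -2.05 ± 0.31 (SE; adjusted p = 2.74e-05). Ccng1 was at 966, 1169 and 1553 in OB and 2798, 2476 and 2617 in OA. Ccng1 differed by -1.12 ± 0.17 (SE; adjusted p = 1.99e-05). The gene that rose was Pmaip1 (Noxa), a proapoptotic BH3 protein, at 251, 267 and 240 in OB and 51, 29 and 9 in OA. Pmaip1 differed by 3.34 ± 0.39 (SE; adjusted p = 1.73e-06). Of the secretory genes linked to senescence, 4 of 20 were higher (20%) and 5 lower (25%), below the 29.1% and 26.6% over all genes tested. Without the library labelled OA replicate 2, 2 were higher and 7 lower. Of the 20, 1 reached 10 in fewer than 2 OA libraries and 3 in fewer than 2 OB libraries. Vegfa, the angiogenic growth factor, was higher at 1364, 885 and 680 in OB and 391, 321 and 228 in OA, and Timp2, a metalloproteinase inhibitor, lower at 1138, 1716 and 1848 in OB and 2799, 2215 and 3008 in OA.

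Markers of other lineages were also counted. Of 10 tested primitive and extraembryonic endoderm genes 4 were lower in OB (40%, against 26.6% over all genes tested) and 0 higher. The counts were 6 and 1 without the library labelled OA replicate 2, and 4 and 2 without OA replicate 1. Cubn, an endocytic receptor of the visceral endoderm, stood at 52, 78 and 64 in OB and 810, 79 and 668 in OA, low in OB and in the library labelled OA replicate 2. Of 7 trophoblast and surface ectoderm genes 4 were lower and 1 higher, with and without the library labelled OA replicate 2. The higher gene was Tfap2c, at 206, 79 and 95 in OB and 47, 15 and 18 in OA. Myod1, Myog, Myf6, Ckm and Nkx2-5 of muscle and heart, Lyz1, Cd52 and Cd79a of leukocytes, Hba-a1, Klf1 and Gata1 of red cells, Adipoq and Plin1 of fat and Krt1, Krt6a and Dsg1a of skin were at 0 in all 6 libraries. Those at 0 were 5 of 14 muscle and heart and 3 of 14 leukocyte genes. For red cells they were 4 of 8, for fat 2 of 8 and for skin 3 of 11. Of the tested members, 2 of 4 leukocyte genes (Cd68 and Lyz2), 1 of 4 fat genes (Pparg) and 1 of 3 skin genes (Sfn) were lower in OB. These shares were 50%, 25% and 33.3%, against 26.6% over all genes tested. Among those tested, 3 leukocyte genes, 1 fat gene and 1 skin gene reached 10 in fewer than 2 OB libraries. This partly fixes the counts of lower genes. In these lists 0 were higher, and Des, the 1 tested muscle gene, was not called. Without the library labelled OA replicate 2 the lower counts were 3, 2 and 0, and Des was lower. Without OA replicate 1, 2 skin genes were lower. The 14 endothelial genes summed to 245 to 372 in OB and 338 to 696 in OA, and 3 of 11 tested were lower in OB (27.3%, near the 26.6% over all genes tested) and 0 higher, 4 and 0 without the library labelled OA replicate 2 and 4 and 1 without OA replicate 1. Of the 11, 1 reached 10 in fewer than 2 OA libraries and 2 in fewer than 2 OB libraries. Of 10 tested cartilage and bone genes 4 were higher (40%), led by Col2a1, and 2 lower (20%), Runx2 and Col11a1. Over all genes tested the shares were 29.1% and 26.6%. The counts were the same without the library labelled OA replicate 2, and the cartilage genes Matn1 and Comp were at 0. In this list 4 of the 10 reached 10 in fewer than 2 OA libraries, which partly fixes the count of higher genes. Over all 17 members, tested or not, OB lay wholly above OA in 4 and wholly below in 1. Both shares were below the 29.2% and 25% over all genes tested. Of 19 immediate early and heat shock genes 3 were higher (15.8%) and 4 lower (21.1%), below the 29.1% and 26.6% over all genes tested (6 lower without the library labelled OA replicate 2).

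At day 6 the same combinations differed at far fewer genes: 506 higher (3.99%) and 442 lower (3.48%) of the 12683, 7.47% in all, from 4 OB and 3 OA libraries, and at day 1, with 2 libraries each, 127 (1%) and 38 (0.3%), 1.3% in all. Without the library labelled OA day 14 replicate 2, which enters the shared estimate of spread, these totals were 1559 and 371. Of the genes called at both day 6 and day 14, 550 had the same direction and 92 the opposite one. The change of the OB minus OA difference from day 6 to day 14 passed the test for 4600 genes (36.3%), 2395 upward (18.9%) and 2205 downward (17.4%). At day 6 the median difference was 0.68 for caudal genes (6 called higher), 0.18 for the Lin28 list, 0.05 for cell cycle genes and -0.11 for glycolysis. For 16 of 16 Lin28 list genes, 30 of 34 cell cycle genes and 17 of 22 glycolytic genes the change from day 6 was called upward.

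Single genes followed different courses. Lin28a differed by 0.90 ± 0.60 (SE; adjusted p = 0.431) at day 6 and Sox2 by 0.59 ± 0.68 (SE; adjusted p = 0.692), neither called. Cdx4 was already higher at day 6, by 3.42 ± 0.49 (SE; adjusted p = 0.000344), as were Sall4, by 3.78 ± 0.68 (SE; adjusted p = 0.00223), and Bcor, by 1.30 ± 0.15 (SE; adjusted p = 4.57e-05). Layn and Myo1d were already lower, with differences of -1.90 ± 0.29 (SE; adjusted p = 0.000579) and -1.77 ± 0.20 (SE; adjusted p = 3.39e-05). The change from day 6 to day 14 was called for Layn and Myo1d but not for Cdx4 (adjusted p = 0.0748), Sall4 (adjusted p = 0.792) or Bcor (adjusted p = 0.601). Kdm2b was at 18690 in all 4 OB libraries of day 6, and its fitted difference there was 6.38 ± 0.21 (SE; adjusted p = 7.9e-13).

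**Figure D5:**
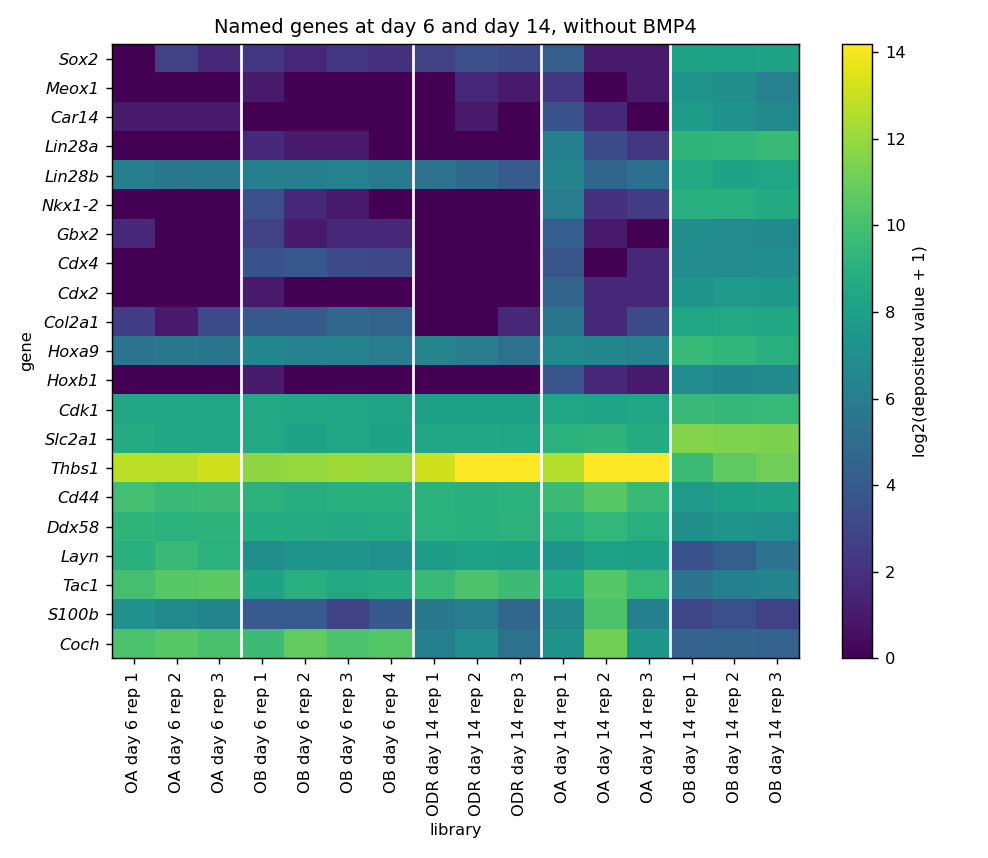
Level of 21 named genes (rows) as log2(deposited value + 1), by colour, in each OA and OB library of day 6 and each ODR, OA and OB library of day 14 (columns, groups parted by white lines). Sox2, Meox1, Lin28a, Nkx1-2 and Cdx2 are bright only in the OB day 14 libraries, with a weaker level in OA replicate 1, and Coch is high at day 6 and in the library labelled OA day 14 replicate 2.

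Both groups were also set beside ODR at day 14, whose libraries the contrasts share, so their values are given side by side only. Against ODR, 3860 genes were higher in OB (30.4%) and 3550 lower (28%), 58.4% in all. In OA, 391 were higher than in ODR (3.08%) and 327 lower (2.58%), 5.66% in all. The median differences for caudal genes were 6.04 for OB and 1.76 for OA, for HoxA genes 1.75 and -0.13, and for interferon genes -1.84 and -0.29. For epithelial genes they were 2.23 (7 of 12 higher) and 3.17 (8 of 12 higher), and for pluripotency genes 0.66 (8 of 17 higher) and 1.1 (6 of 17 higher). The OA values include the library labelled OA replicate 2. In it the mean log2 level of the 12 epithelial genes was 6.81, against 4.73 and 4.33 in OA replicates 1 and 3. That mean was 3.98 to 4.99 in OB and 2.12 to 2.43 in ODR. Genes at least 3 higher on the log2 scale in the single embryonic stem cell library than in the single fibroblast library were called higher in OB than OA in 219 of 540 cases and lower in 81, with a median of 0.63 (234 and 73 without the library labelled OA replicate 2). Genes as much higher in the fibroblast library were called higher in 171 of 1210 and lower in 488, with a median of -0.43 (150 and 584 without the library labelled OA replicate 2). Over all genes tested, 29.1% were called higher in OB than OA and 26.6% lower.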

How the data were processed

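The 6 libraries are poly(A) RNA-seq of bulk cells. Per the submitters' processing notes, bcl2fastq, Bowtie2 2.2.5, RSEM and build mm10 were used. The authors deposited 1 table of 21350 genes by 35 libraries whose whole-number values are normalized scores of no stated unit: every column totals 4255921 to 4398785 and has the same highest value, 18690, held by 9 or 10 genes. Differences in total RNA are therefore not visible, and sequencing depth per library is unknown, so no counting interval is given.

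Values were taken as log2(value + 1). Genes with 10 or more in at least 2 of the 6 libraries (12683) were fitted with limma 3.58.1 in R 4.3.3, with 1 mean for each of 11 groups over 27 libraries (16 residual degrees of freedom), two-sided, and called at an adjusted p under 0.05 (Benjamini-Hochberg). ODR day 6 replicate 3 has the same values as a library labelled with BMP4 in all 21350 genes, and both were left out of the fit. On simulated data with 100 genes changed by 1 and 100 by 2 on the log2 scale, the fit recovered 77% and 88%, with 8 false calls among 173. The simulated noise was normal with the same spread in all groups, and had no ceiling and no library apart. Far fewer genes were changed than were called in the data, so these rates need not hold there.

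Coordinates are from GENCODE on GRCm38, the build of the table, for 21185 genes. Named genes are the markers, the 12 largest differences each way among genes called with and without the library labelled OA replicate 2 whose libraries did not overlap and whose higher group mean was 100 or more, up to 4 a direction of each list with 3 or more calls, and the 4 largest changes each way from day 6. T, Wnt8a, Wnt3, Foxm1, Hmga2, Slc16a3, Col1a2, Dcn, Cldn4, Krt8, Cdh1, Msx1 and Nanog were named after their values were seen. Results for a few other genes were left out. The members and lists were chosen with earlier results of these data known, and no set test was run. Alternatives were another pseudocount, filters, sets of libraries, spread options, scaling, a replicate block and leaving out each library.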

Additional observations from a re-analysis of the deposited data

Results flagged for a closer look

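For the genes given here the OB minus OA difference changed from day 6 to day 14 by the test of the change itself (limma on the log2(value + 1) scale, Benjamini-Hochberg adjusted), and these were among the 8 with the largest changes, 4 in each direction, of genes with a group mean of 100 or more. Car14 changed by 6.55 ± 0.74 (SE; adjusted p = 1.48e-05): it was listed at 0 in all OB libraries of day 6. Meox1 changed by 5.51 ± 0.65 (SE; adjusted p = 2.01e-05) and Sox2 by 5.48 ± 0.99 (SE; adjusted p = 0.000464), and neither was called at day 6. Psd2, an exchange factor for Arf6, changed by 5.33 ± 1.14 (SE; adjusted p = 0.00159); at day 14 it stood at 216, 146 and 96 in OB and 23, 3 and 2 in OA.

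In the 3 downward changes given here, the library labelled OA replicate 2 held the highest of the 3 OA values at day 14. Rgs7bp, a partner of RGS proteins, changed by -4.78 ± 0.82 (SE; adjusted p = 0.000303), from 15, 14, 13 and 8 in OB and 1, 1 and 2 in OA at day 6 to 11, 18 and 24 and 43, 272 and 51 at day 14. Its difference at day 14 was -2.26, and -1.42 (adjusted p = 0.0267) without the library labelled OA replicate 2. That call was lost with the 6 libraries fitted alone (adjusted p = 0.062). Coch changed by -4.15 ± 0.93 (SE; adjusted p = 0.00228). At day 6 its means were 1290 in OB and 1237 in OA, with no difference called. At day 14 its difference was -4.12, and -2.86 without the library labelled OA replicate 2. Tnn, the matrix protein tenascin N, changed by -3.76 ± 1.09 (SE; adjusted p = 0.0117). The change was -2.29 (adjusted p = 0.0049) without the library labelled OA replicate 2, and it was not called with the identical libraries kept (adjusted p = 0.135). Tnn stood at 30, 89 and 84 in OB and 116, 2216 and 90 in OA at day 14. Its difference at day 14 was called with all 6 libraries (adjusted p = 0.0244) and not without that library (adjusted p = 0.164).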

How the results depend on the processing

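The 7075 genes called between OB and OA at day 14 became 7197 with a pseudocount of 8, 7284 with no filter on low values, 6296 with a filter at 50, 7101 with trend and robust spread, 7058 with median-of-ratios scaling, 6818 with the identical libraries kept and 5729 with the day 14 groups alone. With the 6 libraries fitted alone, on 4 residual degrees of freedom, they were 4563, with 2034 lower in OB. Leaving out 1 library at a time gave 6037 to 7124 in all, 3125 to 3690 higher and 2912 to 3434 lower, 3664 to 4994 for the change from day 6, 893 to 1559 at day 6 and 155 to 371 at day 1. The day 1 count was 100 with the identical libraries kept. Without the library labelled OA replicate 2, the 5 remaining libraries alone gave 5422.

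Of 194 called named genes, 146 kept the call in every setting run and none changed direction. Most were named by rules that use the same calls, so this share is partly fixed and does not describe the other genes. The 6 libraries alone lost 47, the day 14 groups alone 27, leaving out the library labelled OA replicate 2 lost 18 and leaving out OB replicate 1 lost 14. The replicate block gave 7244 calls and lost 3 named genes. Same-numbered OB and OA libraries deviated together at r of 0.08, 0.03 and 0.35, and those of other numbers at -0.31 to 0.14. The labels name no pairing, and it was not tested beyond the replicate block. The numbers were not taken as pairs. The change from day 6 cannot be fitted with the day 14 groups or the 6 libraries alone. Scaling moved the share of higher calls from 52.3% to 50.9%. List medians without OA replicate 1 were chosen after seeing the data. Depth is unknown, the table has a ceiling of 18690, and 3 libraries a group limit the precision.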
